A study of Homo sapiens with 28 samples.

Results

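The cytoplasmic RNA of MDA-MB-453 cells given IBET151-VHL was compared with that of cells given its parent compound, IBET151. MDA-MB-453 is an established human breast cancer line with luminal features. IBET151 is an inhibitor that occupies the bromodomains of BET proteins. IBET151-VHL carries IBET151 joined to a VHL ligand, VHL being the substrate receptor of a ubiquitin ligase, and is meant to send BET proteins to the proteasome. The comparison was chosen by label: 3 libraries of IBET151-VHL and 2 of IBET151, 5 of the 28 libraries of the series, with every gene of the 2 deposited tables. All groups, the DMSO controls included, were MDA-MB-453 cells, exposed for 3 h to compound or vehicle, with 4-thiouridine in the medium for the last 60 min. DMSO, JQ1 (another BET inhibitor) and JQ1-VHL had 3 cytoplasmic libraries each, and each group also had a nuclear fraction. No label gives a dose, so the compounds were compared at a matched time and at doses not known here. Nothing in the labels says that replicates came from separate cultures, so p-values measure the spread between these libraries only, which may be technical. By its title the series concerns new transcripts during a brief block of transcription, and here the degrader is set against the inhibitor it is built from.

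BET proteins read acetylated histones at active promoters and enhancers and help the kinase complex P-TEFb to release paused RNA polymerase II. A bromodomain inhibitor displaces them from chromatin, while a degrader removes the proteins themselves. When synthesis of an mRNA slows, its level falls at a rate set by its half-life, so mRNAs of immediate-early genes, feedback regulators and many transcription factors, which turn over quickly, change first, and mRNAs of ribosomal proteins or metabolic enzymes change last. In SLAM-seq, 4-thiouridine built into new RNA is alkylated and read as a T-to-C conversion. Reads with conversions (T>C reads) are thus used as a measure of RNA made during the labelling. How many of them would be found without 4-thiouridine was not measured here. The table of all reads holds old and new RNA together.

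The 5 libraries held 31418683 to 46682546 reads each, of which 82264 to 117070 were T>C reads with IBET151-VHL and 180986 to 232145 with IBET151. Values are scaled by the authors to ERCC RNA added per mass of extracted RNA, so they are relative to that RNA. Neither cell number nor total RNA per cell can be read from them. In these libraries 1 read was worth 0.597 to 0.951 units. The library numbers in the titles fall into runs: IBET151 replicate 1 and IBET151-VHL replicate 2 lie in one run, IBET151 replicate 2 and IBET151-VHL replicate 3 in another, and IBET151-VHL replicate 1 in a run with no IBET151 library. All 7 luminal markers fixed for the line were read, with summed values of 96188 to 111930.0 in IBET151 and 87022 to 113619 in IBET151-VHL, most of it keratins. FOXA1, a pioneer factor of luminal cells and singled out after its values were seen, was at 3257 and 3472 with IBET151 and 1415, 1860.2 and 1929 with IBET151-VHL, without overlap (log2 difference -0.97, SE 0.29, adjusted p = 0.0551). Of 10 markers of stromal, endothelial, immune and red cells, 7 were in the table. Their sums were 1755 to 2085 and 1472 to 2035, nearly all of it COL1A1.

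The first measure was the summed T>C value over all genes. Summed T>C values were 172136 and 211496 in the IBET151 libraries and 68404, 71109 and 69841 in the IBET151-VHL libraries. The groups did not overlap, and the mean log2 sum was 1.45 lower with IBET151-VHL, a 2.73-fold difference (17.54 ± 0.210, SD, n = 2, against 16.09 ± 0.0280, SD, n = 3). T>C reads made up 0.576% and 0.655% of all reads with IBET151, against 0.235%, 0.260% and 0.251% with IBET151-VHL. Within the runs of library numbers that hold both compounds, IBET151 replicate 1 (0.576%) stood against IBET151-VHL replicate 2 (0.260%) and IBET151 replicate 2 (0.655%) against IBET151-VHL replicate 3 (0.251%). The DMSO libraries stood above both groups, at 0.818%, 0.782% and 0.747%. The largest half-width of the 95% Wilson interval of such a share was 0.00266 percentage points, which covers counting error only. An exact 2-sided permutation test of 3 against 2 libraries gave p = 0.1 for the sum and for the share, the smallest value its 10 splits allow. Summed values of all reads were closer, 1.11-fold lower with IBET151-VHL (mean log2 difference -0.14, exact permutation p = 0.1).

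Some genes had a high T>C share with both compounds. In 30 genes over 20% of reads carried conversions in both groups, a rule that uses the values compared and leaves out genes whose share fell below it. Of the 30, 22 had a mean T>C value under 5 in both groups, so their shares rest on few reads. SNX6, which codes for a sorting nexin of endosomes, had T>C shares of 47.4% and 49.2% with IBET151 and of 47.2%, 47.0% and 49.1% with IBET151-VHL. TAFA2, which codes for a secreted chemokine-like protein, had mean shares of 95.4% and 95.7%. Both were at the same level in DMSO (47.8% and 95.5%). DUSP1, a phosphatase of MAP kinases, was also among the 30, with mean T>C values of 52.7 with IBET151 and 5.38 with IBET151-VHL. The 30 genes carried 26.4% and 23.6% of the summed T>C value in the IBET151 libraries and 64.0%, 64.6% and 61.5% in the IBET151-VHL libraries. The 2.73-fold difference in that sum includes them, so it is not the size of the fall in the other genes. Without the 30 genes the difference in mean log2 sum was -2.49. The rule that picks them fixes part of that value, since it takes out genes that kept a high share. Every library was labelled, so the T>C level of cells without 4-thiouridine was not measured.

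In all reads the compounds differed almost entirely in one direction. Of 12470 genes tested, 982 (7.87%) were lower with IBET151-VHL and 4 (0.0321%) were higher. The test was limma on log2(value + 1) over the 14 cytoplasmic libraries, with Benjamini-Hochberg adjustment and a threshold of 0.05, and differences on that scale understate the change of low genes. The median difference over all genes was -0.17 on the log2 scale, and the 982 lower genes had a median of -1.34. A log2 difference below -1 was found in 770 of them and below -2 in 172. The IBET151-VHL libraries lay below both IBET151 libraries in all 982, and in 4524 of the 12470 genes tested. With the run of library numbers in the model, 1474 genes were lower and 9 higher. The count rests on having both IBET151 libraries: 463 genes were lower without IBET151 replicate 1 and 383 without IBET151 replicate 2, where the one IBET151 library left is assumed to vary like the other groups, against 672 to 803 without 1 IBET151-VHL library.

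**Figure D1:**
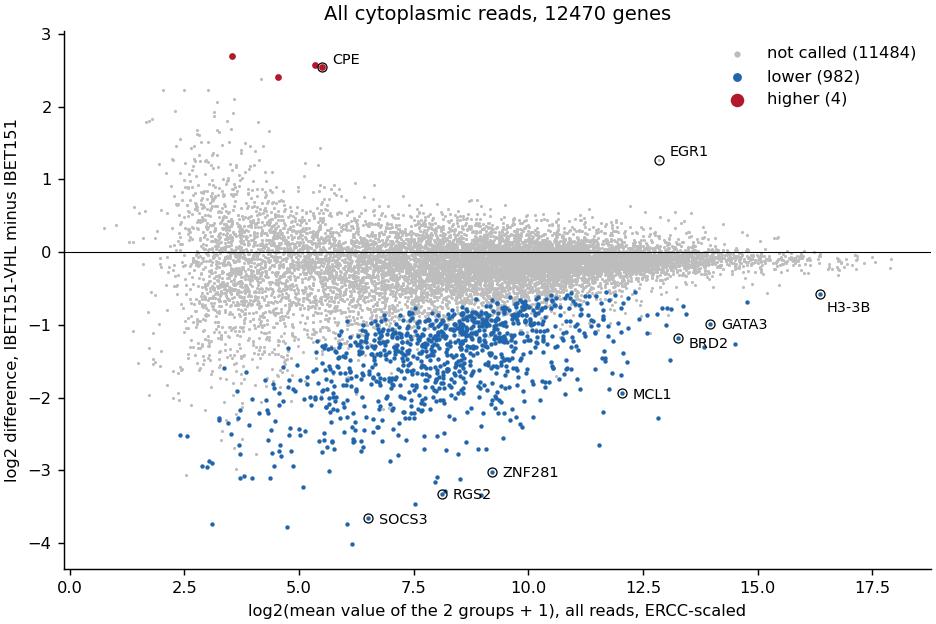
Each point is 1 of 12470 genes, with the log2 of its mean value in all reads over both groups on the x axis and the log2 difference between IBET151-VHL and IBET151 on the y axis. The 982 genes called lower (blue) span nearly the whole range of levels, and the 4 called higher (red) all lie at low levels.

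In 4 of the genes with the largest falls both IBET151 libraries lay above every DMSO library. SOCS3 (ENSG00000184557), an inhibitor of JAK-STAT signalling, was at 35.4, 108 and 109 in DMSO, at 149 and 186 in the IBET151 libraries and at 9.42, 16.4 and 11.9 in the IBET151-VHL libraries (log2 difference -3.66, SE 0.47, adjusted p = 2.04e-04). RGS2 (ENSG00000116741), which shortens G protein signals, was at 534 and 470.1 with IBET151 and 51.8, 60.5 and 38.2 with IBET151-VHL (log2 difference -3.32, SE 0.33, adjusted p = 3.75e-05). In DMSO RGS2 was at 38.6, 77.7 and 41.9, so its IBET151-VHL libraries overlapped the controls and both IBET151 libraries lay far above them. IBET151 was also the highest group for ZCCHC24, which codes for a zinc knuckle protein, at 188, 312 and 153 in DMSO, 888 and 927 with IBET151 and 121, 105 and 55.5 with IBET151-VHL (log2 difference -3.33, SE 0.34, adjusted p = 4.30e-05). RNF223, a RING finger gene, was at 137, 206 and 194 in DMSO, 441 and 609 with IBET151 and 54.5, 38.9 and 68.01 with IBET151-VHL (log2 difference -3.28, SE 0.27, adjusted p = 9.39e-06). For both, IBET151 was above all DMSO libraries and IBET151-VHL below them.

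A second kind of large fall started from DMSO-like levels. RASL11B, which codes for a RAS-like GTPase, was at 415, 335 and 362 in DMSO, 356 and 316 with IBET151 and 31.6, 46.7 and 17.3 with IBET151-VHL (log2 difference -3.46, SE 0.34, adjusted p = 2.95e-05). CHAC1, a glutathione-degrading enzyme of the unfolded protein response, was at 461, 588 and 537 in DMSO, 418 and 507 with IBET151 and 41.03, 67.4 and 53.7 with IBET151-VHL (log2 difference -3.10, SE 0.25, adjusted p = 9.39e-06). EXOC8, a subunit of the exocyst, was at 783, 858 and 559 in DMSO, 629.6 and 667 with IBET151 and 98.9, 93.4 and 43.5 with IBET151-VHL (log2 difference -3.12, SE 0.32, adjusted p = 4.80e-05). In these 3 genes the IBET151 libraries were close to DMSO, and only the IBET151-VHL libraries were low. NUAK2, an AMPK-related kinase (log2 difference -3.15, SE 0.34, adjusted p = 6.07e-05), and the zinc finger gene ZNF799 (log2 difference -3.73, SE 0.46, adjusted p = 1.46e-04) were also among the 10 largest falls. The 9 genes described here kept their call under every alternative that was run.

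**Figure D2:**
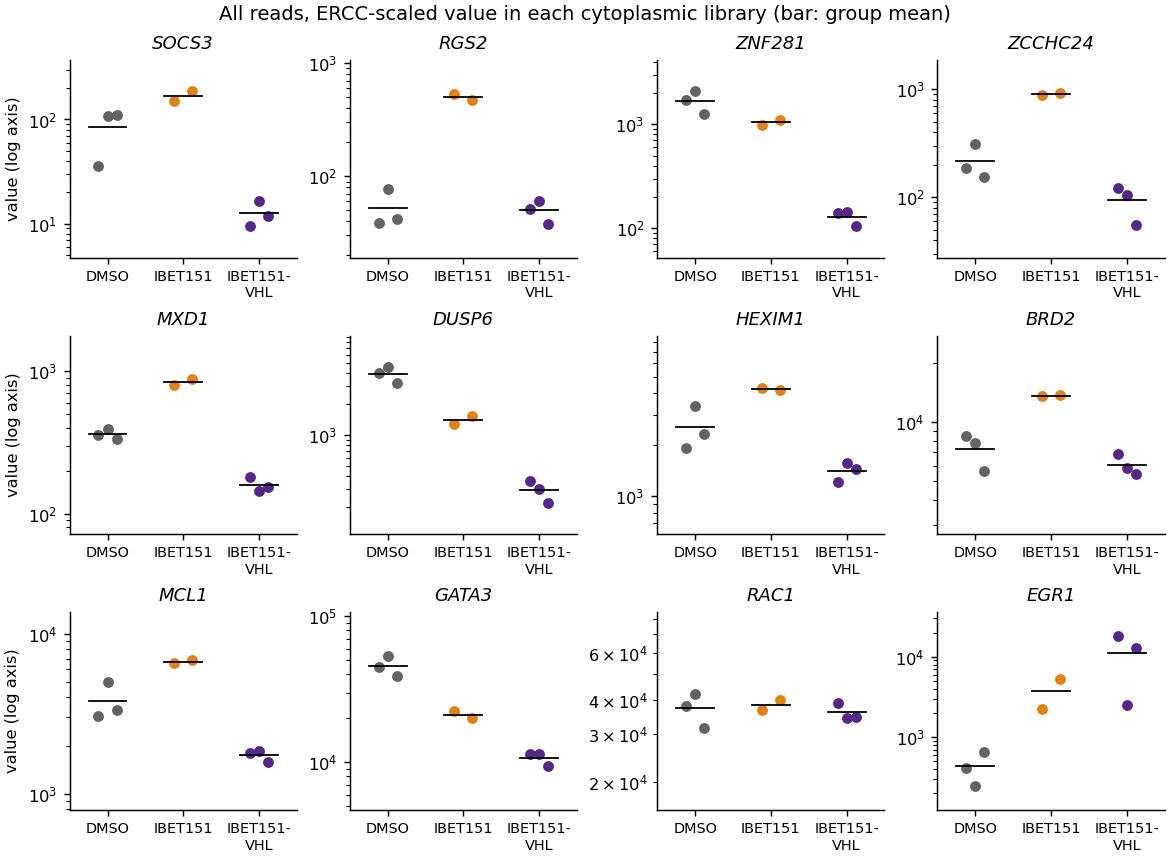
Values of 12 genes in all reads (log axis, ERCC-scaled) in each cytoplasmic library of DMSO, IBET151 and IBET151-VHL, 1 point per library with the group mean as a bar. The IBET151-VHL points lie below both IBET151 points for every gene shown except RAC1 and EGR1, whose groups overlap.

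Against DMSO, the lower genes fell into classes. These contrasts share the IBET151 and IBET151-VHL libraries with the comparison itself and are given side by side only. The DMSO mean lay above both compounds in 503 of the 982 genes, between them in 452, and at or below both in 27. IBET151 did not pass against DMSO in 859, was higher than DMSO in 74 and lower in 49. IBET151-VHL was lower than DMSO in 786, higher in 2, and did not pass in 194. Among the 74 genes that IBET151 raised over DMSO, 58 did not pass against DMSO with IBET151-VHL, and 14 were below DMSO with it. Over all 12470 genes, 112 rose and 202 fell with IBET151 against DMSO, while 58 rose and 1916 fell with IBET151-VHL.

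Of the labile regulators of transcription, a list of factors whose mRNAs turn over quickly, 33 of 52 tested genes were lower and 0 higher. That is 63.5%, against 7.87% of all genes. The median log2 difference was -1.54 (-1.38 relative to the median of all genes). MXD1, which competes with MYC for their partner MAX, was at 795 and 882 with IBET151 and 180.2, 144 and 153 with IBET151-VHL (log2 difference -2.39, SE 0.19, adjusted p = 9.17e-06). SOX9 fell by 2.43 and MAFK by 2.20 on the log2 scale (adjusted p = 2.07e-05 and 2.07e-05). MXD1 was above DMSO with IBET151 (log2 difference 1.21) and below it with IBET151-VHL (-1.18). Without IBET151 replicate 1, and likewise without replicate 2, 20 of the 52 were lower.

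Of the immediate-early genes, which answer growth and stress signals without new protein synthesis, 18 of 28 were lower (64.3%, against 7.87% of all genes) and 0 higher. The median was -1.53, or -1.36 relative to all genes. BTG2, an antiproliferative factor, was at 301 and 436 with IBET151 and 55.8, 55.3 and 52.5 with IBET151-VHL (log2 difference -2.71, SE 0.34, adjusted p = 1.67e-04). GADD45A, a stress response gene, was at 1188 and 1183 with IBET151 and 208, 194 and 203 with IBET151-VHL (log2 difference -2.55, SE 0.27, adjusted p = 4.93e-05). IER5 fell by 2.19 on the log2 scale (adjusted p = 7.27e-05), from 5710.4 and 4617 to 1177, 1313 and 914, with 1711, 1901 and 1225 in DMSO. These 3 genes were lower in every IBET151-VHL library than in any IBET151 library. MCL1, an antiapoptotic member of the BCL2 family, was at 6558 and 6817 with IBET151 and 1798, 1855 and 1590.5 with IBET151-VHL (log2 difference -1.94, SE 0.21, adjusted p = 7.26e-05). MYC, the growth-promoting factor known as a BET target, was at 44.7 and 113 with IBET151 and 7.40, 9.51 and 13.1 with IBET151-VHL (log2 difference -2.75, SE 0.54, adjusted p = 0.00457). Its IBET151 libraries lay far apart, and without IBET151 replicate 2 the adjusted p was 0.123.

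EGR1 and FOS, the best known immediate-early factors, did not follow the list. EGR1 was at 411, 251 and 647 in DMSO, at 2259.8 and 5240.4 with IBET151 and at 17937, 2495 and 12738 with IBET151-VHL (log2 difference 1.27, SE 0.75, adjusted p = 0.515). FOS was at 22.5, 27.9 and 32.1 in DMSO, 173 and 747 with IBET151 and 422, 152 and 529 with IBET151-VHL (log2 difference -0.15, SE 0.66, adjusted p = 0.971). Both were far above DMSO under either compound, and the 2 compounds overlapped. In the run of library numbers that holds IBET151 replicate 1 and IBET151-VHL replicate 2, EGR1 was low in both (2259.8 and 2495), and in the run that holds IBET151 replicate 2 and IBET151-VHL replicate 3 it was high in both (5240.4 and 12738). The part of these runs in the EGR1 values was not tested. ERBB2, the receptor gene amplified in many breast tumours, varied in the same way, at 2476 and 4732 with IBET151 and 8981, 2878 and 5789 with IBET151-VHL (log2 difference 0.63, SE 0.38, adjusted p = 0.538).

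Feedback inhibitors of MAP kinase and cytokine signalling were lower in 16 of 31 cases (51.6%, against 7.87% of all genes) and higher in 0. Their median was -0.86 (-0.69 relative to all genes). DUSP6, the phosphatase of ERK, was at 4008, 4575 and 3249 in DMSO, at 1287 and 1528 with IBET151 and at 364, 301 and 223 with IBET151-VHL (log2 difference -2.27, SE 0.28, adjusted p = 1.46e-04). SPRY1, which blocks receptor tyrosine kinase signals, was at 721, 646 and 562 in DMSO, 126 and 229 with IBET151 and 42.4, 34.6 and 38.2 with IBET151-VHL (log2 difference -2.12, SE 0.31, adjusted p = 4.86e-04). Both fell stepwise from DMSO to IBET151 and from IBET151 to IBET151-VHL, without overlap. TRIB1, a pseudokinase that controls protein turnover, was near DMSO with IBET151 and lower with IBET151-VHL (log2 difference -2.30, SE 0.27, adjusted p = 1.09e-04). Without IBET151 replicate 2, 8 of the 31 genes were lower.

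Genes known to rise under BET inhibition were lower with IBET151-VHL than with IBET151 in 6 of 17 cases (35.3%, against 7.87% of all genes) and higher in 0. Their median was -0.89, or -0.72 relative to all genes. HEXIM1, the inhibitor of P-TEFb and a usual marker of BET inhibition, was at 1920.0, 3357 and 2298 in DMSO, 4328 and 4172 with IBET151 and 1204, 1557 and 1437 with IBET151-VHL (log2 difference -1.61, SE 0.25, adjusted p = 9.39e-04). BRD2, itself a BET protein gene, was at 8459.9, 7847 and 5616 in DMSO, 13528 and 13628 with IBET151 and 6904, 5821 and 5411 with IBET151-VHL (log2 difference -1.17, SE 0.20, adjusted p = 0.00156). DYRK3, a kinase that dissolves condensates, was at 21.9 ± 9.02 in DMSO (SD, n = 3), 237 and 208 with IBET151 and 36.3, 36.3 and 19.1 with IBET151-VHL (log2 difference -2.88, SE 0.42, adjusted p = 4.97e-04). In these 3 genes IBET151 lay above every DMSO library, and the IBET151-VHL mean lay below or near the DMSO mean. These 3 do not stand for the whole list. Over its 17 genes the median log2 difference from DMSO was 1.20 with IBET151 (9 higher, 0 lower) and 0.48 with IBET151-VHL (2 higher, 2 lower). TUBB3, a neuronal tubulin, differed from the 3. It was at 21.7, 12.7 and 5.69 in DMSO, 213 and 243 with IBET151 and 78.02, 70.02 and 47.1 with IBET151-VHL (log2 difference -1.82, SE 0.44, adjusted p = 0.0172). TUBB3 was above all controls under both compounds. Its adjusted p was 0.0987 without IBET151 replicate 1, 0.170 without IBET151 replicate 2 and 0.0768 without IBET151-VHL replicate 3. SERPINI1, a serpin of the same list, did not pass (log2 difference -1.09, SE 0.71, adjusted p = 0.598).

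Targets of p53 were lower in 12 of 27 cases (44.4%, against 7.87% of all genes) and higher in 0. Their median was -0.83, or -0.66 relative to all genes. BBC3, which codes for the proapoptotic protein PUMA, was at 584, 599 and 604 in DMSO, 1219 and 1382 with IBET151 and 262, 286 and 236 with IBET151-VHL (log2 difference -2.31, SE 0.18, adjusted p = 9.17e-06). PLK2, a stress-induced kinase, was at 2844, 2746 and 2826 in DMSO, 1022 and 1164 with IBET151 and 332, 272 and 197 with IBET151-VHL (log2 difference -2.06, SE 0.23, adjusted p = 8.47e-05). These genes moved in opposite directions from DMSO to IBET151, and both were lowest with IBET151-VHL. Without IBET151 replicate 1, 7 of the 27 targets were lower. Of 29 regulators of apoptosis, 6 were lower and 0 higher (3 lower without IBET151 replicate 1 and 2 without IBET151 replicate 2). The 6 are 20.7% of that list, against 7.87% of all genes. They included genes of both signs of action: MCL1, which protects cells, and BBC3, BIK and PMAIP1, which promote death. BIK was at 1449 and 1597 with IBET151 and 794, 905 and 869 with IBET151-VHL (log2 difference -0.83, SE 0.16, adjusted p = 0.00438), with an adjusted p of 0.0814 without IBET151 replicate 2. PMAIP1 was at 74.2 and 72.9 with IBET151 and 22.9, 22.5 and 18.5 with IBET151-VHL (log2 difference -1.75, SE 0.35, adjusted p = 0.00497), with 0.0594 and 0.0629 without IBET151 replicate 1 or 2.

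The luminal programme of the line was touched in part: 8 of 42 luminal and HER2 genes were lower (19.0%, against 7.87% of all genes) and 0 higher. The list's median was -0.05 (0.12 above that of all genes). The lower members named by the rule were transcription factors. ZNF703 was at 2765 and 2776 with IBET151 and 986, 898 and 868 with IBET151-VHL (log2 difference -1.60, SE 0.17, adjusted p = 7.26e-05). TBX3, a repressor of the T-box family, was at 2236 and 2032 with IBET151 and 831, 726 and 692 with IBET151-VHL (log2 difference -1.51, SE 0.20, adjusted p = 2.34e-04). ELF3, an epithelial ETS factor, fell by 1.57 and TFAP2C, an AP-2 factor, by 1.45 on the log2 scale (adjusted p = 7.31e-04 and 0.00181). None of these 4 passed between IBET151 and DMSO. GATA3, the master factor of luminal cells, was at 45036, 53383 and 39096 in DMSO, 22294 and 20152 with IBET151 and 11435, 11424 and 9438 with IBET151-VHL (log2 difference -0.98, SE 0.20, adjusted p = 0.00510), so it fell stepwise, and its adjusted p was 0.0723 without IBET151 replicate 1. Without that library 5 of the 42 genes were lower.

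Zinc finger genes, mostly repressors of the KRAB family, were lower in 152 of 422 cases (36.0%, against 7.87% of all genes), higher in 0, with a median of -0.84 (-0.68 relative to all genes). ZNF281 was at 1724, 2087 and 1266 in DMSO, 987 and 1105 with IBET151 and 139.9, 143 and 104 with IBET151-VHL (log2 difference -3.02, SE 0.28, adjusted p = 2.69e-05). ZNF503, a corepressor gene, was at 2906 and 2731 with IBET151 and 855, 668 and 677 with IBET151-VHL (log2 difference -1.95, SE 0.22, adjusted p = 7.40e-05), and ZNF324 at 179.8 and 193 with IBET151 and 46.4, 30.3 and 35.8 with IBET151-VHL (log2 difference -2.30, SE 0.26, adjusted p = 8.47e-05). None of the 3 passed between IBET151 and DMSO. The number of zinc finger genes called was 60 without IBET151 replicate 1 and 58 without IBET151 replicate 2. With the run of library numbers in the model it was 192, against 1474 lower of all 12470 genes. Reads of related zinc finger genes may be shared between copies.

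The ligase arm of IBET151-VHL binds VHL, the receptor that marks hypoxia-inducible factors for destruction, so the genes of that pathway were examined. VHL mRNA was at 1186 and 1004 with IBET151 and 918, 801 and 599 with IBET151-VHL (log2 difference -0.52, SE 0.25, adjusted p = 0.331), and it passed with the library-number run as a block (log2 difference -0.58, adjusted p = 0.0375). Of 16 genes of the ligase and its cofactors 1 was lower (6.25%, near the 7.87% of all genes). With that block 2 were, against 1474 of all 12470 genes. The 1 lower without the block was CDC34, a ubiquitin-conjugating enzyme gene (log2 difference -0.63, SE 0.16, adjusted p = 0.0218). That call did not hold without IBET151 replicate 2 (0.371) or without IBET151-VHL replicate 1, 2 or 3 (0.0611, 0.0853 and 0.0507). Of 27 targets of hypoxia-inducible factors 6 were lower (22.2%, against 7.87% of all genes) and 0 higher. Their median was -0.26 (-0.10 relative to all genes). DDIT4, an inhibitor of mTOR complex signalling, was at 803 and 1081 with IBET151 and 165, 156 and 109.8 with IBET151-VHL (log2 difference -2.71, SE 0.32, adjusted p = 1.09e-04), and ANKRD37 at 119.8 and 126 with IBET151 and 22.2, 25.1 and 23.3 with IBET151-VHL (log2 difference -2.34, SE 0.30, adjusted p = 2.04e-04). BHLHE40, a clock repressor (log2 difference -1.34, SE 0.31, adjusted p = 0.0117, 0.124 and 0.0771 without IBET151 replicate 1 or 2), and PFKFB3, a glycolytic regulator (log2 difference -1.11, SE 0.22, adjusted p = 0.00420, 0.0651 without IBET151 replicate 1), were lower too. Without IBET151 replicate 1 or 2, 2 and 3 of the 27 targets were lower.

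Of 39 genes of P-TEFb, pausing and elongation 4 were lower and 0 higher. Their share of 10.3% is near the 7.87% of all genes, and the list's median is -0.04 relative to all genes. Besides HEXIM1 these were MEPCE, the capping enzyme of the RNA that holds P-TEFb inactive (2033 and 2089 with IBET151 and 601, 545 and 563 with IBET151-VHL, log2 difference -1.85, SE 0.24, adjusted p = 2.08e-04), and the elongation factor genes ELL (log2 difference -1.13, SE 0.19, adjusted p = 0.00140) and ELL2 (log2 difference -0.66, SE 0.17, adjusted p = 0.0266). The call of ELL2 did not hold without any 1 of 4 libraries: the adjusted p was 0.0842 and 0.320 without IBET151 replicate 1 or 2, and 0.115 and 0.0756 without IBET151-VHL replicate 2 or 3. Of 23 polyadenylated histone genes 1 was lower (4.35%, against 7.87% of all genes). It was H3-3B, a replacement histone gene (log2 difference -0.58, SE 0.16, adjusted p = 0.0407). H3-3B did not pass when any 1 of the 5 libraries was left out (adjusted p = 0.168, 0.289, 0.0997, 0.0921 and 0.115).

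Several lists of genes of basic cell upkeep had no member that passed. None of 77 ribosomal protein genes, 73 mitochondrial ribosomal protein genes, 79 respiratory chain genes and 36 proteasome genes passed, with medians of -0.10, -0.15, -0.11 and -0.09 against -0.17 for all genes. None of 27 sterol genes passed (median -0.20), nor of 13 snoRNA host genes, whose median was -0.42, or -0.25 relative to all genes. With the library-number run as a block 3 of the 27 sterol genes were lower, and 1 snoRNA host gene, SNHG8 (log2 difference -0.35, adjusted p = 0.0420). That block gave 1474 lower of all 12470 genes. RPLP0, of the large ribosomal subunit, was at 97728 and 106306 with IBET151 and 78991, 92958 and 88493 with IBET151-VHL (log2 difference -0.23, SE 0.14, adjusted p = 0.506). The nuclear-retained RNA NEAT1, the scaffold of paraspeckles, was at 1298 and 1723 with IBET151 and 1197, 1044 and 973 with IBET151-VHL in the cytoplasm (log2 difference -0.49, SE 0.26, adjusted p = 0.411). Scaling by the median ratio over human genes in place of ERCC RNA moved the median of all genes from -0.17 to 0.05, so list medians are given relative to all genes above. Under that scaling 869 genes were lower and 24 higher.

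**Figure D3:**
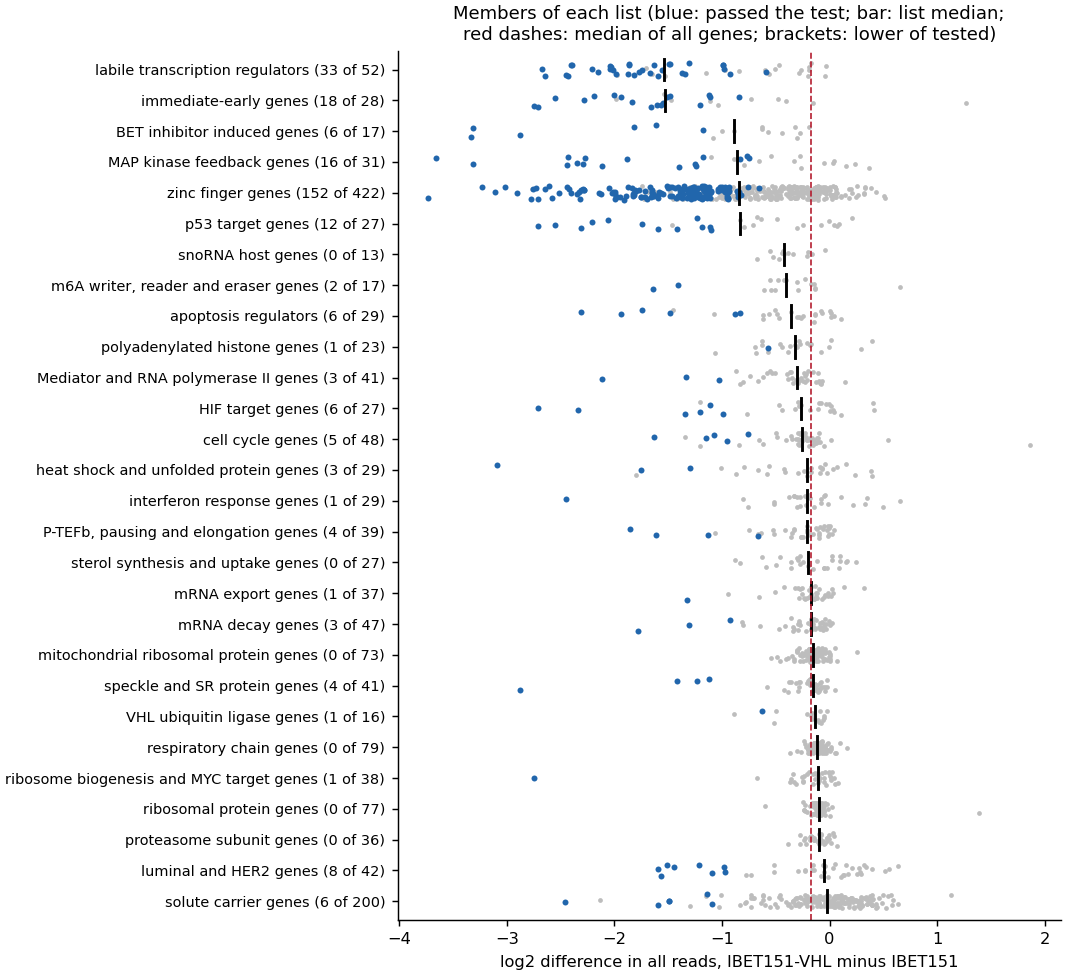
Log2 differences in all reads between IBET151-VHL and IBET151 (x axis) for the members of 28 gene lists with at least 10 genes tested (rows), with list medians as black bars and the median of all genes as red dashes. Labile regulators, immediate-early genes, MAP kinase feedback genes, BET inhibitor induced genes, zinc finger genes and p53 targets lie lowest, and ribosomal, respiratory and proteasome genes lie near the median of all genes.

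The 4 genes higher with IBET151-VHL were all low. CPE (ENSG00000109472), which codes for carboxypeptidase E, a processing enzyme of peptide hormones, was at 26.6, 15.2 and 15.5 in DMSO, 12.4 and 11.8 with IBET151 and 78.7, 86.4 and 62.6 with IBET151-VHL (log2 difference 2.54, SE 0.55, adjusted p = 0.00814). CPE was above all IBET151 and DMSO libraries in each IBET151-VHL library, and its T>C values were 0 in both with IBET151 and 3.36, 0 and 5.37 with IBET151-VHL. Without IBET151 replicate 1 or 2 its adjusted p was 0.0692 and 0.0835. The other 3 lay below the level set for naming and are named here because they are so few, after their values were seen: SNX31, a sorting nexin gene (7.61 and 11.8 with IBET151, 109, 30.3 and 70.4 with IBET151-VHL), LRRC4, a synaptic adhesion gene (15.2 and 1.82, then 30.9, 48.4 and 28.04), and the readthrough transcript ATP6V1G2-DDX39B (3.80 and 0.911, then 18.8, 20.7 and 16.7), which shares sequence with its 2 source genes.

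The T>C share of a gene in DMSO was measured in libraries that are not part of the comparison. A higher share is expected where cytoplasmic mRNA is replaced faster, but turnover itself was not measured. The share was taken for the 9603 genes with a DMSO mean of at least 100, of which 846 were lower. Of the 2517 genes with a T>C share under 0.25%, 0.675% were lower with IBET151-VHL, and of the 1482 with 0.25% to 0.5%, 1.08% were. The percentage was 2.94% of 2008 genes between 0.5% and 1%, 7.78% of 1838 between 1% and 2%, 21.5% of 1178 between 2% and 4%, 56.9% of 432 between 4% and 8% and 79.2% of 125 between 8% and 16%. The median log2 difference went from -0.06 in the first of these groups to -1.71 in the last. Of 23 genes at 16% or more, 13 were lower (56.5%). That group also held TAFA2, SNX6, KDM5B, CAGE1, CDK11A, SMG6 and MED19, whose T>C shares were nearly equal under both compounds and which did not pass. Whether the DMSO share of these genes reflects turnover was not tested. The median DMSO T>C share was 3.44% in the lower genes and 0.659% in all 9603.

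**Figure D4:**
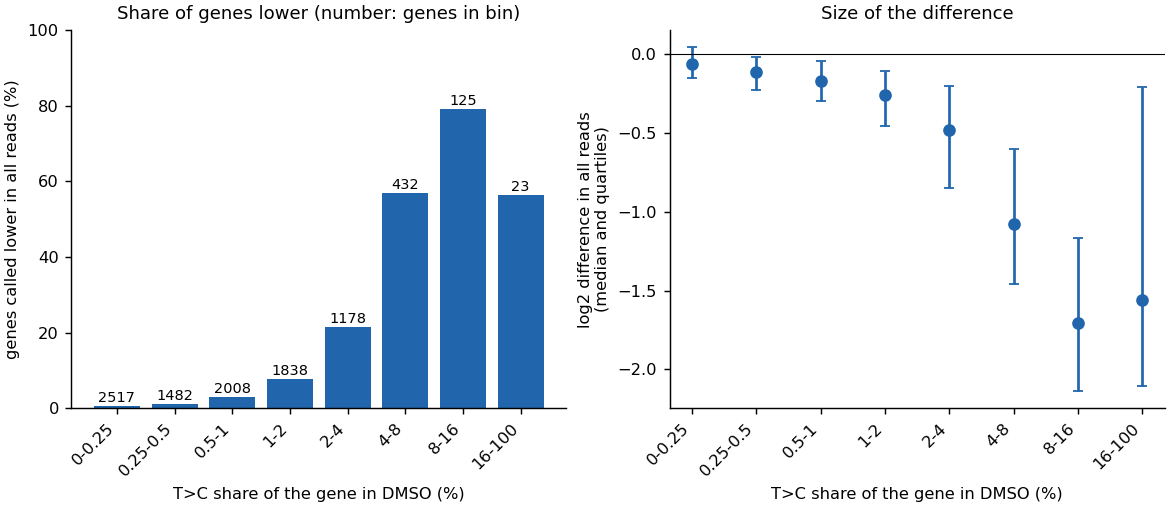
Genes grouped by their T>C share in DMSO (x axis, percent): the left panel gives the percentage of each group called lower in all reads with IBET151-VHL (number of genes above each bar), the right panel the median and quartiles of the log2 difference. The bars go from 0.675% in the first group to 79.2% between 8% and 16% and 56.5% in the 23 genes at 16% or more.

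Sequence features of the lower genes were taken from a GENCODE annotation of GRCh38 by gene identifier and are descriptions only. Lower genes were shorter, with a median gene length of 18169 bases and 5 exons in the longest coding transcript, against 37589 bases and 10 exons in genes not called. Of 979 genes of up to 5000 bases 14.4% were lower, and of 2715 genes over 100000 bases 2.17%. Within genes with a DMSO T>C share of 4% or more, 80.5% of 257 genes of up to 20000 bases and 46.0% of 315 longer ones were lower. The heptamer TATTTAT, the core of AU-rich elements that mark mRNAs for rapid decay, was in the 3′ UTR of 427 of 960 lower genes (44.5%) and of 30.5% of 11004 genes not called. Lower genes had longer 3′ UTRs, with a median of 1431 against 961.5 bases, so genes were also compared within classes of UTR length. In UTRs of 1000 to 2000 bases 11.99% of 851 genes with the heptamer and 8.21% of 1633 without it were lower. The difference had the same direction in all 5 classes up to 4000 bases, and in longer UTRs the values were 8.73% and 8.62%.

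Of the 9 genes with large falls described above 5 hold the heptamer. For 4 of them its first match is shown with 10 bases on each side, 5′ to 3′ in the sense of the mRNA and with T for U, the heptamer in capitals, since it is the feature more frequent among lower genes. In GRCh38 these lie in the 3′ UTRs at chr17:78356833-78356859 (minus strand) for SOCS3, chr10:79383821-79383847 (minus strand) for ZCCHC24, chr1:205302896-205302922 (minus strand) for NUAK2 and chr15:40955960-40955986 (plus strand) for CHAC1.
SOCS3: actttgcacaTATTTATatttatattc
ZCCHC24: tgtgaatttgTATTTATtttgagttat
NUAK2: tttttattttTATTTATttatttattt
CHAC1: cttgaaacttTATTTATtgcaccatgt

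Promoters were searched from 250 bases before to 50 after the start of each gene on both strands for CCAAT, the letters bound by the factor NF-Y, and for the TATA box, the GC box, the cAMP response element, the E-box, the CArG box and the AP-1, ETS and NRF1 motifs. A unique promoter sequence was matched for 583 of the 982 lower genes (59.4%), too few for a comparison over the set, which is void and not given. Of the 9 genes with large falls 7 have a promoter sequence, and 6 of the 7 hold CCAAT, which is in 36.2% of all 22114 promoters of this length. The motif was picked from those searched after the matches were seen, in genes chosen for their falls. No excess over other promoters can thus be read from 6 of 7. The promoter of RGS2 at chr1:192808789-192809088 (plus strand) and that of CHAC1 at chr15:40953221-40953520 (plus strand) in GRCh38.p14 are shown 5′ to 3′ on the strand of the gene, as examples from the genes raised by IBET151 and from those that IBET151 left near DMSO, with CCAAT or its reverse complement in capitals. RGS2 has 1 match and CHAC1 has 3.
RGS2: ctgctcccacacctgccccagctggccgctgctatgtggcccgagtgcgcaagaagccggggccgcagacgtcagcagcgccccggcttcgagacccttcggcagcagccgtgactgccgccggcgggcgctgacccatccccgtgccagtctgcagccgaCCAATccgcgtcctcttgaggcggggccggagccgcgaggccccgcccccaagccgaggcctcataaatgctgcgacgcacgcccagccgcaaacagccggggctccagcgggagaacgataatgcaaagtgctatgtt
CHAC1: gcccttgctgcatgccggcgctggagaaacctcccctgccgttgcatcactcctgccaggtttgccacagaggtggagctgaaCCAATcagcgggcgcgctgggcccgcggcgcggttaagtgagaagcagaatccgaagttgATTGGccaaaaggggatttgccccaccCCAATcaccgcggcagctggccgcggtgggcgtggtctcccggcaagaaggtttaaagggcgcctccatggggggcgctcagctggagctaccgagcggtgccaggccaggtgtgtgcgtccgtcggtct

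In T>C reads the fall was nearly general. Of 6300 genes tested, 4352 (69.1%) were lower with IBET151-VHL and 3 (0.0476%) higher, and the median log2 difference was -2.25. Of 1358 genes with a mean T>C value of at least 20 in IBET151, 1272 were lower, and the median gene kept 8.15% of its IBET151 value (quartiles 4.29% and 14.7%). Under 10% was kept in 804 of the 1358 and 50% or more in 73. The 1358 genes were picked by their level in IBET151, a group of the comparison and the base of these percentages. That choice favours lower calls and a low percentage kept, so 8.15% is not an unbiased size of the fall. With the filter 5 times higher, 1697 of 1817 genes were lower. That filter counts libraries of all cytoplasmic groups, and T>C values were lower with IBET151-VHL than with IBET151 or DMSO. Genes can thus pass it without the IBET151-VHL libraries, so it can favour lower calls too. In a fit of only the 5 libraries compared, 2927 of 3400 genes were lower, and the same limit holds there. Under median-ratio scaling, which centres the table on its own median gene, 667 genes were lower and 166 higher, so the number of calls rests on the ERCC scale. In 884 of the lower genes no T>C read was found in any IBET151-VHL library. Of the 982 genes lower in all reads 828 were tested, and 747 of these were lower in T>C reads.

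SERTAD2, a regulator of E2F factors, had T>C values of 68.5 and 55.6 with IBET151 and 0 in all 3 IBET151-VHL libraries, from 133 reads and 0 reads, which is at least 89.1-fold lower against a floor of 3 reads over the group (log2 difference -5.97, SE 0.61, adjusted p = 1.19e-08). BBC3 was at 90.4 and 84.7 with IBET151 and 0, 2.59 and 0 with IBET151-VHL, a 126-fold difference in reads per unit of scale with a 95% counting interval of 42.4 to 616 (log2 difference -5.85, SE 0.58, adjusted p = 6.77e-09). The F-box genes FBXO33 (log2 difference -5.77, SE 0.53, adjusted p = 2.39e-09) and FBXO45 (log2 difference -5.43, SE 0.46, adjusted p = 1.12e-09), CDR2L (log2 difference -5.76, SE 0.51, adjusted p = 1.74e-09), TFAP2C (log2 difference -5.65, SE 0.56, adjusted p = 6.77e-09) and HEXIM1 (log2 difference -5.49, SE 0.54, adjusted p = 6.76e-09) were among the 10 largest falls. All of these also fell in all reads. The calls in all reads did not hold for FBXO45 without IBET151 replicate 2 (0.0585) and for CDR2L without IBET151 replicate 1 or 2 (0.101 and 0.0880).

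The other 3 of the 10 largest falls in T>C reads were in mRNAs whose total did not pass. S100A16, a calcium-binding protein gene, had T>C values of 67.5 and 161 with IBET151 and 2.69, 0 and 1.79 with IBET151-VHL (log2 difference -5.60, SE 0.55, adjusted p = 6.76e-09), and values of 62545 and 64002 with IBET151 and 61536, 66961 and 58087 with IBET151-VHL in all reads (log2 difference -0.03, SE 0.13, adjusted p = 0.976). RAC1, the GTPase of the cell cortex, had T>C values of 79.9 and 107 with IBET151 and 5.38, 0 and 0.597 with IBET151-VHL (log2 difference -5.43, SE 0.58, adjusted p = 2.90e-08) with a log2 difference of -0.09 in all reads (adjusted p = 0.921). SF3B5, a splicing factor subunit gene, had T>C values of 128 and 136 with IBET151 and 0, 1.73 and 9.54 with IBET151-VHL (log2 difference -5.44, SE 0.71, adjusted p = 5.00e-07) with -0.24 in all reads (adjusted p = 0.506). In these 3 genes the T>C value was lower in every IBET151-VHL library while the total overlapped or differed little.

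Some of the genes named by the rules kept more of their T>C value than the median gene. H2BC12, H3-3B and RPS2 are not among the 73 genes with 50% or more of their IBET151 value left. Those 73 included EGR1, UXT (106% left), AMBRA1 (91.5%), RPL30 (84.0%) and ATP5MC3 (50.9%). H2BC12, a histone gene, had T>C values of 71.6, 44.7 and 63.1 in DMSO, 143 and 279.7 with IBET151 and 76.00, 111 and 76.96 with IBET151-VHL (log2 difference -1.20, SE 0.42, adjusted p = 0.0129), and the adjusted p was 0.246 without IBET151 replicate 2. H3-3B was at 2100.0 and 2427 with IBET151 and 484, 596 and 569 with IBET151-VHL (log2 difference -2.04, SE 0.23, adjusted p = 8.15e-08), and RPS2, of the small ribosomal subunit, at 202 and 209.5 with IBET151 and 42.4, 47.5 and 60.9 with IBET151-VHL (log2 difference -2.03, SE 0.45, adjusted p = 3.36e-04). These differences are smaller than the median of all genes, and under median-ratio scaling all 3 turn positive. EGR1 was at 359 and 1015 with IBET151 and 952, 241 and 935 with IBET151-VHL (log2 difference -0.01, SE 0.53, adjusted p = 0.997), with overlapping groups. Of the 3 genes higher in T>C reads, CPE, COQ4 and a gene without a symbol, none reached a mean of 20. In the lists, 60 of 73 ribosomal protein genes were lower in T>C reads, 52 of 64 respiratory chain genes, 45 of 49 labile regulators and 23 of 27 immediate-early genes, against 69.1% of all genes tested. Under median-ratio scaling 0 of the 73 ribosomal protein genes were lower and 9 higher, 3 of the 64 respiratory chain genes were lower and 2 higher, 14 of the 49 labile regulators were lower and 1 higher, and 8 of the 27 immediate-early genes were lower and 1 higher.

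The T>C share of each gene was lower in 3719 (59.0%) of 6300 genes and higher in 11 (0.175%), with a median log2 difference of -1.87. An ERCC factor common to T>C and all reads cancels in this share, apart from the 1 added to each value. None of the 11 had a T>C value over 6.56 in any of the 5 libraries, and 6 had no T>C read in them at all, so their shares were not resolved at this depth. In those 6 the measure rose only because all reads were lower with IBET151-VHL. The number of genes with a higher share was 9 with a pseudocount of 0.5 and 73 with 5. The 5 largest falls among genes at the set level were S100A16 (mean share 0.180% with IBET151 and 0.00248% with IBET151-VHL), RAC1 (0.241% and 0.00515%), SF3B5 (0.522% and 0.0171%), CDR2L (1.11% and 0.0212%) and CAMK2N1, an inhibitor of CaM kinase II (0.451% and 0.00912%). When each table was scaled to its own median gene, 346 shares were lower and 156 higher. MYC did not pass, with a mean share of 3.03% with IBET151-VHL and 29.2% with IBET151, from 2 and 51 T>C reads (log2 difference -1.32, SE 0.59, adjusted p = 0.0526).

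JQ1-VHL and JQ1 form a second pair, in which the same kind of ligase arm is joined to another parent and no library is shared. There 521 genes (4.18%) were lower and 6 (0.0481%) higher in all reads. Of these 521, 482 (92.5%) were among the 982 lower genes of the IBET151 pair, which is 49.1% of the 982. The difference between the pairs was tested gene by gene. In all reads 0 of 12470 genes passed with limma (smallest adjusted p = 0.836) and 0 with edgeR, while DESeq2 called 2. The median SE of that difference was 0.37. At an unadjusted p under 0.05, 240 genes stood out. Across the 12470 genes the log2 differences of the pairs had a Pearson r of 0.698, over points that share the fit and the levels of the genes. RGS2, for example, had -3.32 in the IBET151 pair and -3.36 in the JQ1 pair and ZNF281 -3.02 and -1.87. An absent call does not show that the pairs act alike.

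In T>C reads the median difference was -2.25 in the IBET151 pair and -1.39 in the JQ1 pair, and 14 of 6300 genes (0.222%) had a larger fall in the IBET151 pair, 0 a smaller one. EPC1, a subunit of the NuA4 histone acetyltransferase, had T>C values of 88.5 and 87.5 with IBET151 and 4.71, 5.19 and 8.35 with IBET151-VHL, against 94.5, 81.7 and 48.97 with JQ1 and 30.8, 59.8 and 39.4 with JQ1-VHL (log2 difference between the pairs -2.91, SE 0.59, adjusted p = 0.0293). In all reads EPC1 was at 1349 and 1267 with IBET151 and 423, 472 and 387 with IBET151-VHL in the IBET151 pair (log2 difference -1.62, SE 0.21, adjusted p = 2.09e-04), with a log2 difference of -0.18 in the JQ1 pair. EP300, a histone acetyltransferase, had T>C values of 49.5 and 81.99, then 0.673, 1.73 and 1.19, against 52.8, 34.9 and 43.7, then 8.05, 14.5 and 8.91 (log2 difference between the pairs -2.92, SE 0.65, adjusted p = 0.0485). In both genes the JQ1-VHL libraries kept more T>C reads than the IBET151-VHL libraries. ZBTB7A, a repressor (log2 difference between the pairs -3.05, SE 0.60, adjusted p = 0.0293), WAC, an adaptor of histone ubiquitination (log2 difference between the pairs -3.04, SE 0.61, adjusted p = 0.0293), and SDCBP, the adaptor syntenin (log2 difference between the pairs -3.01, SE 0.68, adjusted p = 0.0485), were the others named by the rule. The count was 92 with edgeR. With DESeq2 it was 316, where 3786 of the 6300 genes had no adjusted p. It was 0 without IBET151 replicate 1 or 2, JQ1-VHL replicate 2 or JQ1 replicate 1 or 2, 92 without JQ1-VHL replicate 1, 7 without JQ1-VHL replicate 3, 2 without JQ1 replicate 3, and 1 gene in the other direction under median-ratio scaling.

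**Figure D5:**
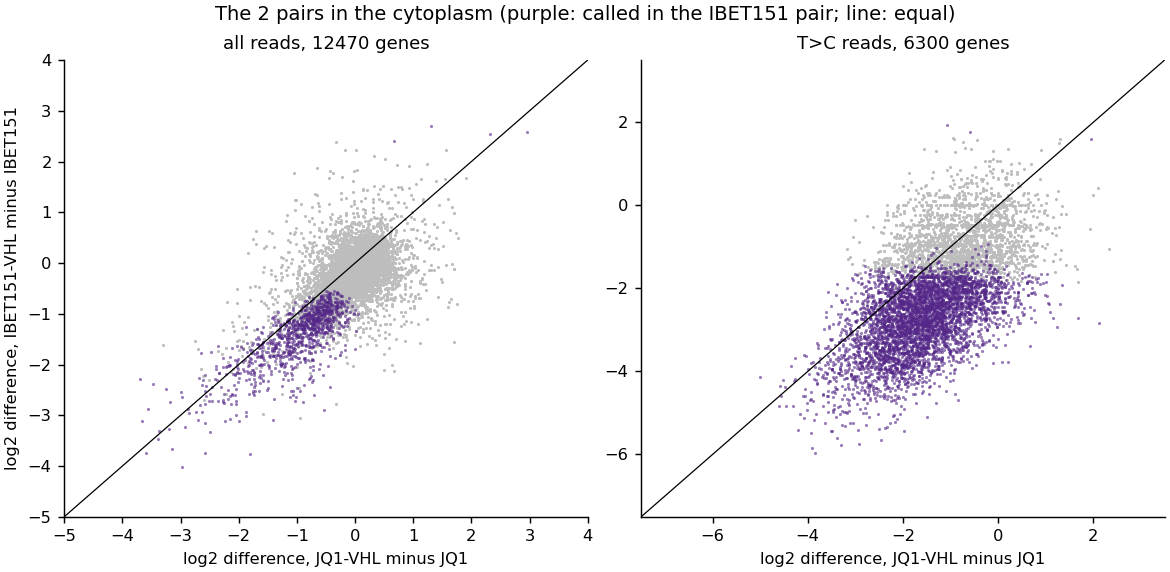
Log2 differences of each gene in the JQ1 pair (x axis) and in the IBET151 pair (y axis), for all reads (left, 12470 genes) and T>C reads (right, 6300 genes), with genes called in the IBET151 pair in purple and the line of equal differences. Purple genes on the left lie mostly below 0 in both pairs, and on the right the cloud lies below the line, with medians of -1.39 and -2.25.

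The same comparison in the nuclear fraction gave median log2 differences of -0.78 for all reads and of -3.01 for T>C reads. Of the 982 genes lower in the cytoplasm, 979 were below 0 in the nucleus (91.6% of all genes tested there were). Of the 982, 279 passed as lower there, against 437 of all 14458 genes tested in the nucleus. The nuclear minus cytoplasmic difference passed for 0 of the genes in all reads with limma, at a smallest adjusted p of 0.894, for 278 at an unadjusted p under 0.05, and for 0 with edgeR and 0 with DESeq2. In T>C reads 2473 of 12067 genes (20.5%) had a larger fall in the nucleus and 22 (0.182%) a smaller one. With edgeR 0 genes passed and with DESeq2 1. The 12067 genes were kept by a filter over both fractions, against 6300 by the filter over the cytoplasmic libraries. Many were thus kept on nuclear values and lie near 0 in the cytoplasm, where log2(value + 1) can hardly fall. Larger falls in the nucleus numbered 1395 with a pseudocount of 0.5 and 5800 with 5. Of 591 genes with a mean cytoplasmic T>C value of at least 20, 10 passed, 9 with a smaller fall in the nucleus and 1 with a larger one. KLF6, a growth-suppressing factor, was the largest of these: its T>C values were 1621 and 1967 with IBET151 and 807, 1339 and 1081 with IBET151-VHL in the nucleus, and 137 and 189 with IBET151 and 9.42, 15.6 and 10.1 with IBET151-VHL in the cytoplasm (log2 difference between the fractions 2.94, SE 0.83, adjusted p = 0.0106). The nuclear libraries of KLF6 kept more of their IBET151 level than the cytoplasmic ones, and the call did not hold without IBET151 nuclear replicate 1 (adjusted p = 0.0642). Without that library 664 genes passed in all, and 1297 without IBET151 cytoplasmic replicate 1.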

How the data were processed

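MDA-MB-453 cells were labelled, fractionated with digitonin and, per the labels' protocols, mixed with Drosophila S2 cells before lysis and with ERCC RNA per mass of extracted RNA, so the scale is relative to RNA and not to cells. Libraries covered the 3′ ends of polyadenylated RNA. The submitters' processing notes name bcl2fastq, Trimmomatic 0.39, HISAT2, HTSeq and DESeq2, with GRCh37, hg19 and dm3 as builds. The way T>C reads were called is not given in the sources used here. The deposited tables hold ERCC-normalized signal per gene for all reads (16482 genes) and T>C reads (13029 genes). In each library 100% of values were within 0.001 of a whole multiple of 1 step, taken as 1 read, which gave the counts used for edgeR and DESeq2.

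Genes that reached 10 units in all reads, or 5 units in T>C reads, in 2 or more libraries were tested with limma 3.58.1 (R 4.3.3) on log2(value + 1) over the 14 cytoplasmic libraries (28 for the fractions), with a trended variance and Benjamini-Hochberg adjustment over all genes. The T>C share was tested as the difference of both log2 values. Alternatives were edgeR 4.0.16, DESeq2 1.42.0, other pseudocounts and filters, median-ratio scaling, blocks, library weights and leaving out each library. Scripts were tested on simulated data. Named genes are the 10 largest changes each way with adjusted p under 0.05, no overlap and a mean level of 50 in all reads or 20 in T>C reads, the 5 largest in other comparisons, for each list the 4 members of smallest p, and 14 genes given in any case. Some genes that meet these rules are not reported here. The comparison, the 30 gene lists and these rules were chosen with earlier results of these data known. Gene symbols and promoters came from RefSeq and gene name tables (16069 of 16482 identifiers matched), gene lengths and UTRs from an annotation of GRCh38, matched by identifier, since no genome of the files' build was used. Intervals cover counting error only.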

Additional observations from a re-analysis of the deposited data

Results flagged for a closer look

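The difference between IBET151-VHL and IBET151 was set against the same difference in the JQ1 pair and in the nuclear fraction, and each result here is one in which the test of that difference itself passed in T>C reads. Against the JQ1 pair 14 genes passed. The 5 at the level set for naming had log2 differences between the pairs of -3.05 for ZBTB7A, -3.04 for WAC, -3.01 for SDCBP, -2.92 for EP300 and -2.91 for EPC1, each a larger fall in the IBET151 pair. None of the 14 calls holds in every alternative, since the count was 0 without either IBET151 library.

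Between the fractions 2495 genes passed with limma, 0 with edgeR and 1 with DESeq2. Of those at the level set for naming, 9 had a smaller fall in the nucleus and 1 a larger one. The 5 largest of the 9 were KLF6 (log2 difference between the fractions 2.94), NRARP, an inhibitor of NOTCH signalling (2.90), ZBTB7A (2.74), PNRC2, a coactivator that also takes part in mRNA decapping (2.72), and FAM111B, a protease gene (2.64). USP48, a deubiquitinase gene, was the 1 with a larger fall in the nucleus (-2.72). Its T>C values were 45.7 and 31.9 with IBET151 and 26.2, 38.9 and 21.5 with IBET151-VHL in the cytoplasm, and 385 and 352 with IBET151 and 24.8, 36.3 and 73.9 with IBET151-VHL in the nucleus. In the cytoplasm the USP48 groups overlapped and 74.5% of the IBET151 value was left. Cytoplasmic T>C shares of USP48 were 0.757% and 0.640% with IBET151 and 0.451%, 0.668% and 0.458% with IBET151-VHL. Without IBET151 nuclear replicate 1 none of these 6 passed (adjusted p from 0.0642 for KLF6 to 0.107 for USP48), and all but KLF6 also failed without IBET151 cytoplasmic replicate 2 (0.0690 to 0.104) and without 3 or more other single libraries. The call that DESeq2 made was KLF6. With groups of 2 and 3 libraries no search for single libraries far from their group was made.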

How the results depend on the processing

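The direction of the main counts was kept in all alternatives run for all reads, T>C reads and T>C shares of the IBET151 pair. In all reads 986 genes passed, 1483 with a term for the run of library numbers, 1689 with a weight per library and 385 to 806 without 1 library. In T>C reads 4355 passed, 1697 with a filter 5 times higher, 833 under median-ratio scaling (166 higher and 667 lower) and 3252 to 4066 without 1 library. For T>C shares these were 3730, 1655, 502 (156 higher and 346 lower) and 2657 to 3467. The difference between the pairs passed for 0 genes in all reads, 2 with DESeq2 and 2 with weights, and 0 without any 1 library. In T>C reads it passed for 14: 316 with DESeq2 (no adjusted p for 3786 genes), 92 with edgeR, 75 with the higher filter, 0 with no filter, with a pseudocount of 5 or with the run as a block, 8 with weights, 0 to 92 without 1 library, and 1, in the other direction, under median-ratio scaling. The difference between the fractions passed for 0 genes in all reads, 11 under median-ratio scaling, 128 with weights and 0 to 1 without 1 library. In T>C reads it passed for 2495: 0 with edgeR, 1 (smaller fall in the nucleus) with DESeq2, 90 under median-ratio scaling (72 with a smaller fall in the nucleus and 18 with a larger one), 1416 and 5826 with pseudocounts of 0.5 and 5, 3817 with weights and 664 to 2886 without 1 library. Apart from the filters, which test fewer or more genes, the cause was not tested. The log2 difference in summed T>C value ran from -1.60 to -1.30 without 1 library, and that in T>C share from -0.407 to -0.327 percentage points. Of 4536 alternative values for the 141 genes named by the rules and reported 4168 kept direction and call, 299 lost the call, 61 gained one and 8 changed sign. All 8 were T>C differences under median-ratio scaling, which takes the median fall out: USP48 2.22, EGR1 2.71, H3-3B 0.68, H2AC6 0.0496, H2BC12 1.51, SNHG8 0.47, EPB41L4A-AS1 1.37 and RPS2 0.67.

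Replicate numbers are shared by 2 libraries of each compound. Deviations from the group means had a Pearson r across 12470 genes of -0.0708 for number 1 and -0.439 for number 2. For the pairs that share a run it was 0.439 and 0.409. With 2 IBET151 libraries the deviations of one are the negative of the other's, so -0.439 and 0.439 are the same value with its sign turned. These values are not independent, and no pairing is read from them. With the replicate number as a block 1063 genes passed in all reads, 4233 in T>C reads and 3711 in T>C share, 0 and 20 between the pairs in all reads and T>C reads, and 0 and 2900 between the fractions. In the same fit the summed T>C value differed by -1.45 and the T>C share by -0.368 percentage points. Depth limits the T>C values of low genes: 1 read is worth up to 0.951 units, and 6 of 11 genes with a higher T>C share had no T>C read.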

Other observations

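The lists given here had 0% to 11.8% of their tested members lower in all reads, against 7.87% of all genes. IRF1, the transcription factor that starts interferon responses, was at 144 and 140.3 with IBET151 and 22.2, 35.4 and 20.3 with IBET151-VHL (log2 difference -2.45, SE 0.42, adjusted p = 0.00176), and it was 1 of 29 interferon response genes that passed. MED9, a subunit of Mediator, was at 285 and 278 with IBET151 and 72.6, 55.3 and 65.6 with IBET151-VHL (log2 difference -2.12, SE 0.25, adjusted p = 1.27e-04), and 3 of 41 genes of Mediator and RNA polymerase II were lower. Leaving out either IBET151 library, or IBET151-VHL replicate 3, left 1 of the 41 lower. RBM15 and CBLL1, which code for partners of the m6A methyltransferase, fell by 1.64 and 1.41 on the log2 scale (adjusted p = 0.00251 and 0.00295), 2 of 17 genes of that pathway. With the library-number run as a block 6 of the 17 were lower, against 1474 of all 12470 genes. WTAP and YTHDF1 were among the 6 (adjusted p = 0.0252 and 0.0224). TOB1, an adaptor that brings deadenylases to mRNAs, was at 1334 and 2036 with IBET151 and 656, 383 and 439.7 with IBET151-VHL (log2 difference -1.78, SE 0.30, adjusted p = 0.00139). Of 47 mRNA decay genes 3 were lower, and 1 without either IBET151 library.

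Of 48 cell cycle genes 5 were lower (10.4%, near the 7.87% of all genes), among them CDC25A, the phosphatase that opens S phase, at 1168 and 1059 with IBET151 and 339, 424 and 319.8 with IBET151-VHL (log2 difference -1.63, SE 0.19, adjusted p = 1.09e-04). Without IBET151 replicate 2, 1 of the 48 was lower. Of 41 speckle and SR protein genes 4 were lower (9.76%, likewise near 7.87%), all of them kinases of the CLK and DYRK families: DYRK3, CLK4 (log2 difference -1.23, SE 0.23, adjusted p = 0.00325), DYRK2 (log2 difference -1.42, SE 0.28, adjusted p = 0.00518) and CLK1 (log2 difference -1.12, SE 0.31, adjusted p = 0.0332). Without either IBET151 library 2 of the 41 were lower: CLK4 had an adjusted p of 0.0606 without IBET151 replicate 2, DYRK2 of 0.0706 without IBET151 replicate 1, and CLK1 did not pass when any 1 of the 5 libraries was left out (0.186, 0.206, 0.0593, 0.0903 and 0.0969). Among 37 mRNA export genes NXT1, which pairs with the export receptor NXF1, was lower (log2 difference -1.32, SE 0.25, adjusted p = 0.00336), with an adjusted p of 0.0672 without IBET151 replicate 2. Of 200 solute carrier genes 6 were lower. Without IBET151 replicate 2 or IBET151-VHL replicate 2 the count was 2 and 3. Of 38 genes of ribosome biogenesis and MYC targets 1 was lower, MYC itself (adjusted p = 0.123 without IBET151 replicate 2). None of 4 stromal and immune markers tested passed. With the library-number run as a block the number lower was 6 for Mediator and RNA polymerase II, 5 for mRNA decay, 8 for the cell cycle, 4 for mRNA export, 12 for solute carriers and 2 for ribosome biogenesis and MYC targets. That block gave 1474 lower of all 12470 genes, so these higher counts are not particular to those lists.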
